A study of Mus musculus with 16 samples.

Results

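Enzalutamide was compared with its absence in the tumours of mice kept on alternate-day fasting. The 8 libraries of this comparison, of 16 in the series, came from B6MyC-CaP tumours: 4 from mice on alternate-day fasting that also received enzalutamide (ADF + ENZ, written ADF+ENZ here) and 4 from mice on alternate-day fasting alone (ADF). B6MyC-CaP is a cell line from the Hi-MYC mouse after backcrossing to C57BL/6, a prostate cancer model in which a MYC transgene is driven by a prostate-specific probasin promoter. Cells had been placed under the skin of male C57BL/6 mice aged 6 weeks, and treatment began once tumours had formed. All 8 mice alternated 24 h without food and 24 h with free access to it, and the ADF+ENZ mice were also given enzalutamide at 20 mg/kg by mouth once a day. The other 8 tumours came from freely fed mice, 4 given the same dose of enzalutamide (ENZ) and 4 given vehicle (Vehicle), and served as the setting in which the enzalutamide difference was compared between diets. The labels name no vehicle gavage in the ADF group, no treatment length and no fasting phase at collection, and they do not say that each library came from a separate mouse, so the p-values measure the spread between these libraries.

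Enzalutamide is an antiandrogen, and androgen signalling drives secretory, lipid and metabolic genes in prostate epithelium. The glucocorticoid receptor acts on closely related DNA elements and induces an overlapping set of genes, among them the chaperone gene Fkbp5. Fasting lowers circulating glucose, insulin and growth factors and raises glucocorticoids.

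Of 55414 gene IDs, 18946 had enough counts to be tested. In ADF+ENZ tumours 1652 genes were higher and 1429 were lower than in ADF tumours at an adjusted p under 0.05 in edgeR's quasi-likelihood test, which is 8.72% and 7.54% of the genes tested and 16.3% together. The CPM values (counts scaled to library size, with TMM factors) of the 4 ADF+ENZ and the 4 ADF tumours did not overlap for 3889 genes, or 20.5%. The differences were mostly small among genes that rose, with a median log2 difference of 0.42 and 120 genes over 2-fold, and larger among genes that fell, with a median of -0.81 and 487 genes over 2-fold. The median over all genes tested was -0.02. Leaving out 1 tumour moved these counts: they fell to 672 higher and 525 lower without ADF replicate 4, to 681 and 593 without ADF+ENZ replicate 3, to 878 and 749 without ADF replicate 3, and to 1071 and 860 without ADF+ENZ replicate 1.

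The 2 groups of libraries also differed in make-up. Reads that fell in no annotated feature made up 24.5, 26.1, 21.2 and 24.1% of reads in the ADF+ENZ libraries, against 30.3, 31.9, 32.9 and 36.7% in the ADF libraries, and the groups did not overlap. Multiply aligned reads were 7.09% ± 0.591 in ADF+ENZ libraries and 4.70% ± 0.414 in ADF libraries (SD, n = 4 each). Long noncoding genes took 1.79% ± 0.166 of gene counts in ADF+ENZ libraries and 2.55% ± 0.363 in ADF libraries, and the unconfirmed single-exon models that the annotation calls TEC took 0.324% ± 0.0303 in ADF+ENZ and 0.512% ± 0.0697 in ADF libraries. Each of these 4 measures separated the groups completely, with an exact two-sided permutation p of 0.0286, the smallest that 4 against 4 allows, and an adjusted p of 0.0465 over 13 library measures. The same held for ambiguous reads and for the shares of gene counts in mitochondrially encoded genes and in the top 100 genes. It also held for annotated classes other than coding, long noncoding, TEC and pseudogenes. With the percentage of reads in no feature added to the fit as a covariate, no gene passed in either direction by edgeR or by limma-voom, while 589 and 574 genes had an unadjusted p under 0.05. In that edgeR fit 78.3% of the higher and 78.2% of the lower genes kept their sign, and the median standard error of the log2 difference was 0.323, against 0.172 without the covariate. The enzalutamide difference in fasted tumours and this difference in library make-up therefore cannot be told apart in this design. In the ENZ and in the Vehicle libraries reads in no feature averaged 25.9%. With that covariate no gene passed the test of a different enzalutamide effect between diets either, by edgeR or by limma-voom. A difference between diets and the library make-up of the ADF group therefore cannot be told apart either. Gene totals were 10072489 to 25505655 counts in ADF+ENZ and 12289755 to 16140246 counts in ADF libraries. In a principal component plot of the 1000 most variable genes, ADF+ENZ replicate 3 stood apart, at 39.7 on the first component (27.4% of variance), with the other 15 libraries between -22.1 and 17.6.

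**Figure D1:**
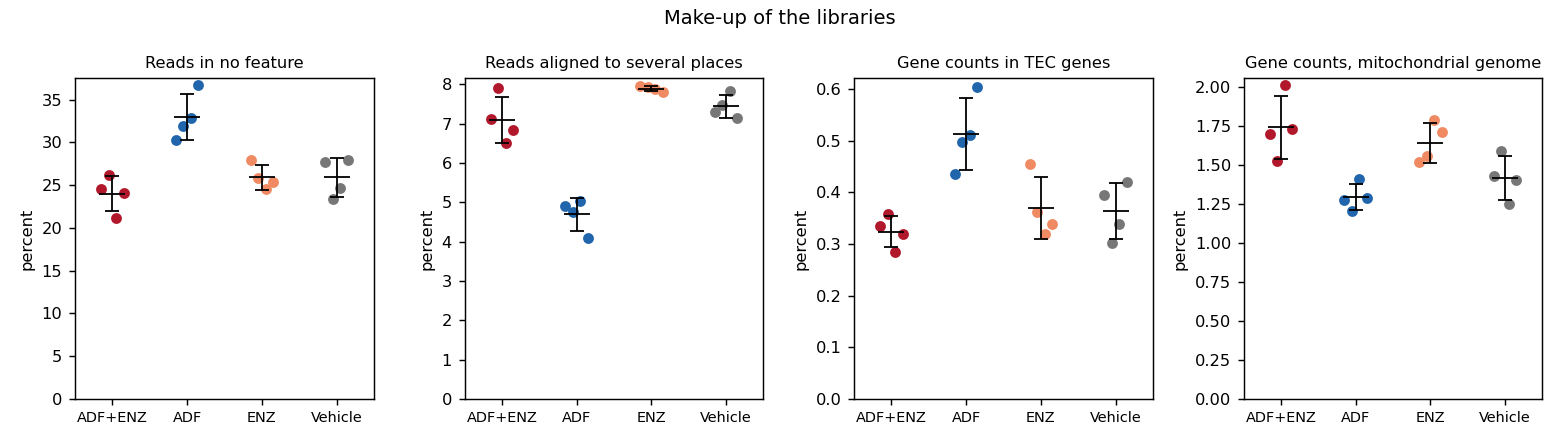
Make-up of the 16 libraries: percent of reads in no annotated feature, percent of reads aligned to several places, and percent of gene counts in TEC models and in mitochondrially encoded genes, by group. Points are libraries, bars the mean and SD (n = 4 per group); the 4 ADF libraries lie apart from the 4 ADF+ENZ libraries in each panel.

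By gene class, TEC models and long noncoding genes past the threshold were mostly lower. Of 1199 TEC models tested 8 were higher (0.667%) and 337 lower (28.1%), against 8.72% and 7.54% of all genes. Of 2064 long noncoding genes 31 were higher (1.5%) and 251 lower (12.2%). Protein-coding genes went mostly the other way, with 1455 higher (10.6%) and 740 lower (5.38%) of 13766. When protein-coding genes were fitted and scaled alone, 985 were higher and 937 lower of 13748, where both the genes tested and the genes used for scaling were fewer. Pseudogenes divided into 93 higher (5.79%) and 79 lower (4.92%) of 1605, both under the shares of all genes. Of 8 tested transcripts known to stay in the nucleus, none was higher and 3 were lower, or 37.5%, with a median log2 difference of -0.76. The lower ones numbered 0 without ADF+ENZ replicate 3, ADF replicate 3 or ADF replicate 4 and 1 without ADF+ENZ replicate 1 or ADF+ENZ replicate 4. Malat1, an abundant nuclear RNA, had 8008, 8665, 6548 and 6189 CPM in the ADF+ENZ tumours, against 11237, 8327, 12174 and 14487 CPM in the ADF tumours (log2 difference -0.65 ± 0.18 (SE), adjusted p = 0.0189), and its highest ADF+ENZ tumour lay above its lowest ADF tumour. Kcnq1ot1, the antisense RNA that silences an imprinted cluster, had 63.8, 96.2, 50.5 and 86.2 CPM in the ADF+ENZ tumours, against 114, 131, 143 and 154 CPM in the ADF tumours (log2 difference -0.86 ± 0.22 (SE), adjusted p = 0.021). Its groups did not overlap, and a protein-coding gene lies on the other strand at the same place. With the unassigned-read percentage above as a covariate, the sign of both turned, to 0.13 for Malat1 and 0.25 for Kcnq1ot1 in edgeR.

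Of the higher protein-coding genes whose groups did not overlap and whose CPM averaged 1 or more, Chrnd had the largest log2 difference. Chrnd, a subunit of the muscle acetylcholine receptor, had 1.23, 0.531, 5.70 and 1.09 CPM in the ADF+ENZ tumours, against 0.240, 0.355, 0.0787 and 0.215 CPM in the ADF tumours (log2 difference 3.05 ± 0.84 (SE), adjusted p = 0.0243). ADF+ENZ replicate 3 was the highest, and the groups did not overlap. Klhl40, a protein of the muscle sarcomere, had 1.47, 1.19, 2.85 and 0.849 CPM in the ADF+ENZ tumours, against 0.320, 0.355, 0.551 and 0.502 CPM in the ADF tumours (log2 difference 1.79 ± 0.53 (SE), adjusted p = 0.0297). They passed in 5 and 2 of 8 fits that left out 1 tumour. Skeletal muscle markers summed to 81.1 to 113 CPM in ADF+ENZ and 65.2 to 91.3 CPM in ADF tumours, and with that sum as a covariate 423 genes were higher and 310 lower. With it the log2 difference was 2.18 for Chrnd and 1.38 for Klhl40. Hsd11b1, whose enzyme regenerates active glucocorticoid from its inert form, had 35.1, 31.5, 28.9 and 17.7 CPM in the ADF+ENZ tumours, against 14.6, 7.70, 8.98 and 6.09 CPM in the ADF tumours (log2 difference 1.60 ± 0.36 (SE), adjusted p = 0.0114). All 4 ADF+ENZ tumours lay above all 4 ADF tumours. Lrrc15, a membrane protein of matrix-producing fibroblasts, had 81.4, 26.8, 137 and 28.9 CPM in the ADF+ENZ tumours, against 5.12, 16.5, 22.2 and 10.5 CPM in the ADF tumours (log2 difference 2.31 ± 0.60 (SE), adjusted p = 0.0233). Its groups did not overlap, although the ADF+ENZ tumours themselves spread widely. Siglec15, a lectin of macrophages and osteoclasts, had 3.43, 2.19, 4.82 and 2.34 CPM in the ADF+ENZ tumours, against 0.560, 0.592, 1.34 and 0.645 CPM in the ADF tumours (log2 difference 1.997 ± 0.49 (SE), adjusted p = 0.013). Gfra1, the co-receptor of the growth factor GDNF, had 5.06, 1.92, 3.72 and 3.56 CPM in the ADF+ENZ tumours, against 0.879, 1.84, 0.709 and 0.287 CPM in the ADF tumours (log2 difference 1.88 ± 0.45 (SE), adjusted p = 0.0121). Neither gene overlapped between groups. Trim66, a chromatin reader, rose by 1.46 and Gabbr2, a subunit of the GABA-B receptor, by 1.62 on the log2 scale (adjusted p = 0.00993 and 0.0149). The genes Siglec15, Gfra1, Gabbr2, Hsd11b1 and Trim66 passed in each of 8 fits that left out 1 tumour, and Lrrc15 in 5 of 8.

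Genes with small p-values and smaller changes included Selenof, which encodes a selenoprotein of the endoplasmic reticulum. It had 485, 518, 521 and 476 CPM in the ADF+ENZ tumours, against 343, 282, 316 and 289 CPM in the ADF tumours (log2 difference 0.70 ± 0.08 (SE), adjusted p = 0.000351), with no overlap. Chst11, a chondroitin sulfotransferase, had 128, 80.8, 133 and 107 CPM in the ADF+ENZ tumours, against 57.2, 61.4, 61.2 and 64.6 CPM in the ADF tumours (log2 difference 0.88 ± 0.12 (SE), adjusted p = 0.000677). The lysosomal protease gene Ctsl had 1157, 860.1, 1118 and 856 CPM in the ADF+ENZ tumours, against 743, 578, 542 and 454 CPM in the ADF tumours (log2 difference 0.78 ± 0.15 (SE), adjusted p = 0.00369). In both genes each ADF+ENZ tumour lay above each ADF tumour.

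The largest falls were deeper. Lamc3, a laminin chain of basement membranes, had 2.29, 5.64, 1.64 and 2.26 CPM in the ADF+ENZ tumours, against 10.8, 11.4, 22.2 and 23.4 CPM in the ADF tumours (log2 difference -2.49 ± 0.35 (SE), adjusted p = 0.00158). The ADF tumours were above the ADF+ENZ tumours without exception. Apod, a secreted lipocalin, had 3.19, 2.79, 2.74 and 4.32 CPM in the ADF+ENZ tumours, against 16.1, 24.2, 13.6 and 20.7 CPM in the ADF tumours (log2 difference -2.48 ± 0.45 (SE), adjusted p = 0.00478). Lbp, the plasma protein that binds bacterial lipopolysaccharide, had 8.01, 19.5, 2.63 and 14.7 CPM in the ADF+ENZ tumours, against 53.3, 47.3, 79.1 and 41.1 CPM in the ADF tumours (log2 difference -2.24 ± 0.45 (SE), adjusted p = 0.00886). Both again separated the groups. Omd, a proteoglycan of mineralised matrix, fell by 2.39, Gad2, which makes the transmitter GABA, by 2.32 and the tight-junction gene Cldn10 by 1.94 on the log2 scale (adjusted p = 0.00482, 0.013 and 0.0115). B4galnt1, which makes complex gangliosides, had 14.5, 13.4, 12.3 and 15.8 CPM in the ADF+ENZ tumours, against 28.5, 22.7, 27.6 and 32.5 CPM in the ADF tumours (log2 difference -0.98 ± 0.11 (SE), adjusted p = 0.000351). Msln, the surface glycoprotein mesothelin, had 41.6, 44.4, 35.5 and 38.7 CPM in the ADF+ENZ tumours, against 82.1, 74.0, 77.2 and 61.6 CPM in the ADF tumours (log2 difference -0.88 ± 0.11 (SE), adjusted p = 0.000405). Neither of these overlapped between groups. Lamc3, Apod, Lbp, Omd, Cldn10, B4galnt1 and Msln passed in each fit that left out 1 tumour, and Gad2 in 7 of 8.

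**Figure D2:**
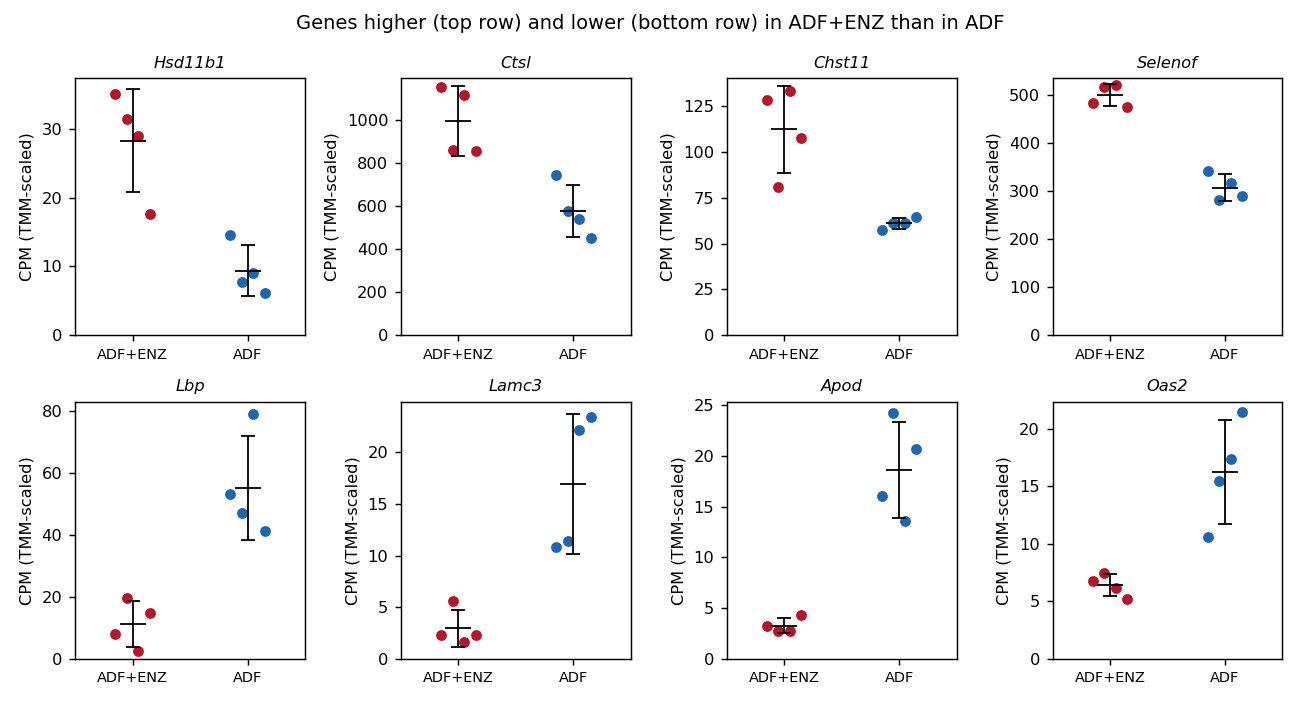
TMM-scaled CPM of 4 genes higher and 4 genes lower in ADF+ENZ (left in each panel) than in ADF tumours (right). Points are tumours, bars the mean and SD (n = 4 each); in each panel the 2 groups do not overlap, as in Hsd11b1 with a mean of 28.3 CPM in ADF+ENZ and 9.35 CPM in ADF tumours.

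Snord118 and Rny3, both short structured RNAs, were among the 4 noncoding genes that the naming rule picked for the largest rises. Snord118, the U8 small nucleolar RNA of ribosomal RNA processing, had 21.2, 18.6, 35.8 and 16.1 CPM in the ADF+ENZ tumours, against 5.596, 7.64, 6.53 and 4.09 CPM in the ADF tumours (log2 difference 1.92 ± 0.27 (SE), adjusted p = 0.00136). Rny3, a Y RNA bound by the Ro60 protein, had 93.7, 70.02, 198 and 72.4 CPM in the ADF+ENZ tumours, against 21.9, 37.4, 41.3 and 19.2 CPM in the ADF tumours (log2 difference 1.85 ± 0.39 (SE), adjusted p = 0.00992). Both separated the groups and passed in each fit that left out 1 tumour. The related Rny1, picked after its values were seen, had 89.5, 73.0, 282 and 85.0 CPM in the ADF+ENZ tumours, against 39.9, 41.3, 51.2 and 33.7 CPM in the ADF tumours (log2 difference 1.66 ± 0.41 (SE), adjusted p = 0.0189). The gene ID ENSMUSG00002076161, which the annotation used here neither names nor classes, had 12768, 19709, 15412 and 13862 CPM in the ADF+ENZ tumours, against 7382, 6533, 8027 and 6548 CPM in the ADF tumours (log2 difference 1.12 ± 0.14 (SE), adjusted p = 0.000565). The ADF+ENZ and ADF libraries also differed in reads in no feature and in reads aligned to several places, as given above. The part of library make-up in the rise of these RNAs was not tested. Their sequences are shown because the transcripts are far shorter than messenger RNAs, at 135 bases for Snord118 (chr11:69073427-69073561, plus strand), 102 for Rny3 (chr6:47781624-47781725, plus strand) and 112 for Rny1 (chr6:47788069-47788180, minus strand), from GENCODE M21 on GRCm38, written 5′ to 3′ as DNA:
Snord118: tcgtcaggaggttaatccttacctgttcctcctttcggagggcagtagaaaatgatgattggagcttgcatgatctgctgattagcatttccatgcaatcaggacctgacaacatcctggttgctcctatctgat
Rny3: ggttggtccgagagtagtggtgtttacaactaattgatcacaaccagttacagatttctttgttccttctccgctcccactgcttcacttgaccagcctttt
Rny1: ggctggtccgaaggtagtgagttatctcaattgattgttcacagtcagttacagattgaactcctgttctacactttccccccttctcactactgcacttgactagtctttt

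Androgen signalling was examined with a list of 100 androgen-response genes, of which 90 were tested. In ADF+ENZ tumours 15 were higher and 4 lower, or 16.7% and 4.44% against 8.72% and 7.54% of all genes. Their median log2 difference was 0.12, against -0.02 over all genes. The log2 differences of the higher members spanned 0.27 to 0.90, and those of the lower members -4.54 to -0.29. The 4 lower members are not named in this paragraph, and -4.54 is also the lowest value among the luminal prostate markers. The higher members numbered 5 without ADF+ENZ replicate 3 or ADF replicate 4 and 7 without ADF replicate 3. They numbered 9 when protein-coding genes were fitted alone. The lower members numbered 1 without ADF+ENZ replicate 1, ADF+ENZ replicate 3, ADF replicate 3 or ADF replicate 4 and 2 without ADF+ENZ replicate 4. Pbsn, the probasin gene and a classical prostate target, had no count in any of the 8 libraries, which allows a mean level of up to 0.0490 CPM in ADF+ENZ and 0.0535 CPM in ADF tumours (3 counts over the group, counting error only). Tmprss2 had 12 counts in the ADF+ENZ libraries and 13 in the ADF libraries together and was not tested. Among list members that rose, Scd1, a fatty acid desaturase, had 475, 472, 529 and 427 CPM in the ADF+ENZ tumours, against 299.6, 327, 359.6 and 280.2 CPM in the ADF tumours (log2 difference 0.59 ± 0.12 (SE), adjusted p = 0.00506). H1f0, a linker histone of slowly dividing cells, had 490.5, 379, 689.5 and 593 CPM in the ADF+ENZ tumours, against 346, 350.5, 317 and 289 CPM in the ADF tumours (log2 difference 0.72 ± 0.13 (SE), adjusted p = 0.00301). Neither overlapped between groups. Pmepa1, a target of both androgen and TGF-beta signalling, rose by 0.49 on the log2 scale (adjusted p = 0.0328), with overlapping groups, and passed in 3 of 8 fits that left out 1 tumour.

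Of 23 glucocorticoid-induced genes tested, 3 were higher, or 13% against 8.72% of all genes, none was lower, and the median log2 difference was 0.20. The count was 6 without ADF replicate 1. Klf9, a transcription factor gene induced by glucocorticoids and by androgens, had 242, 231, 276 and 235 CPM in the ADF+ENZ tumours, against 193, 115, 131 and 112 CPM in the ADF tumours (log2 difference 0.83 ± 0.17 (SE), adjusted p = 0.0072). Its groups did not overlap. Dusp1, a phosphatase that shuts off MAP kinases, had 110.4, 133, 146 and 113 CPM in the ADF+ENZ tumours, against 98.9, 64.0, 79.4 and 79.1 CPM in the ADF tumours (log2 difference 0.65 ± 0.13 (SE), adjusted p = 0.00552). The metallothionein gene Mt1 had 96.6, 100.4, 129 and 90.0 CPM in the ADF+ENZ tumours, against 81.7, 72.0, 80.1 and 78.7 CPM in the ADF tumours (log2 difference 0.41 ± 0.11 (SE), adjusted p = 0.0212). Both separated the groups. Fkbp5 had 402, 294, 451 and 273 CPM in the ADF+ENZ tumours, against 343, 188, 208 and 228 CPM in the ADF tumours (log2 difference 0.55 ± 0.20 (SE), adjusted p = 0.0678), and Zbtb16, a further glucocorticoid target, had 81.2, 76.3, 34.2 and 55.2 CPM in the ADF+ENZ tumours, against 111, 32.3, 58.2 and 68.7 CPM in the ADF tumours (log2 difference -0.12 ± 0.36 (SE), adjusted p = 0.839). Both overlapped and neither passed. The receptor gene Nr3c1 differed by 0.19 (adjusted p = 0.179) and the glucocorticoid target Tsc22d3 by 0.47 (adjusted p = 0.306).

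The lists of the protein-making machinery held more higher than lower members. Of 79 cytosolic ribosomal protein genes tested, 37 were higher, or 46.8%, and none was lower, with a median log2 difference of 0.32 and members that rose spanning 0.29 to 0.73. The count was 14 without ADF replicate 4, 17 without ADF+ENZ replicate 3 and 18 without ADF replicate 3. With coding genes fitted alone it was 29. Ribosomal protein genes have many processed pseudogenes, so their counts can be split between copies. Rpl41 had 481, 662, 600.4 and 494 CPM in the ADF+ENZ tumours, against 351, 349.9, 348 and 384 CPM in the ADF tumours (log2 difference 0.64 ± 0.11 (SE), adjusted p = 0.00249) and Rpl15 had 346, 397, 397 and 347 CPM in the ADF+ENZ tumours, against 299, 249, 234 and 218 CPM in the ADF tumours (log2 difference 0.57 ± 0.10 (SE), adjusted p = 0.0032). Each separated the groups. Mitochondrial ribosomal protein genes gave 21 higher, or 33.3%, and none lower of 63 (median 0.26). The count was 9 without ADF+ENZ replicate 3, ADF replicate 3 or ADF replicate 4 and 11 without ADF+ENZ replicate 1. They were led by Mrpl12, at 58.6 ± 5.42 CPM in ADF+ENZ tumours and 38.6 ± 3.92 CPM in ADF tumours (SD, n = 4 each; adjusted p = 0.00273).

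Translation factors gave 16 higher, or 33.3%, and 1 lower of 48. The higher ones numbered 5 without ADF replicate 4, 6 without ADF+ENZ replicate 3 and 7 without ADF replicate 3. The exception was Eef2k, the kinase that inhibits elongation, which had 21.8, 21.9, 19.4 and 27.4 CPM in the ADF+ENZ tumours, against 33.3, 35.6, 33.4 and 38.9 CPM in the ADF tumours (log2 difference -0.63 ± 0.12 (SE), adjusted p = 0.00347). The initiation factor subunit Eif3h rose to 549 ± 57.1 CPM in ADF+ENZ tumours, against 383 ± 48.6 CPM in ADF tumours (SD, n = 4 each; adjusted p = 0.00464). The cap-binding gene Eif4e differed by 0.28 (adjusted p = 0.0618) and its repressor Eif4ebp1 by 0.19 (adjusted p = 0.643), and neither passed. Of 50 ribosome biogenesis genes induced by MYC, 17 were higher, or 34%, and none lower (median 0.25), among them Pes1, a factor of large-subunit assembly, at 94.2 ± 14.4 CPM in ADF+ENZ tumours and 60.9 ± 5.78 CPM in ADF tumours (SD, n = 4 each; adjusted p = 0.00154), and Dctpp1, a nucleotide-cleansing enzyme, with a log2 difference of 0.73. The mouse gene Myc did not differ beyond its spread, at 124 ± 18.6 CPM in ADF+ENZ tumours and 117 ± 25.6 CPM in ADF tumours (adjusted p = 0.727). Whether reads of the MYC transgene were counted in this gene was not tested, so its level is not shown. In a list of 35 tested mTOR signalling genes 6 were higher, or 17.1%, and none lower, led by Rraga, a small GTPase that reports amino acids to mTOR, with a log2 difference of 0.65 ± 0.11 (SE), adjusted p = 0.00249. The biogenesis genes that were higher numbered 6 without ADF+ENZ replicate 3 or ADF replicate 4, 7 without ADF replicate 3 and 10 without ADF+ENZ replicate 1. Those of mTOR signalling numbered 1 without ADF+ENZ replicate 3 or ADF replicate 4 and 2 without ADF+ENZ replicate 1, ADF replicate 2 or ADF replicate 3.

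The protein quality control lists had higher members and none lower. The proteasome had the largest share of higher members among the nuclear gene lists, 19 of 33, or 57.6% (median 0.31; range of those that rose 0.27 to 0.47). Psmb4, a subunit of the catalytic core, had 137, 117, 136 and 115 CPM in the ADF+ENZ tumours, against 103, 93.5, 83.1 and 84.2 CPM in the ADF tumours (log2 difference 0.47 ± 0.09 (SE), adjusted p = 0.00345), without overlap. The proteasome count was 7 without ADF replicate 4, 8 without ADF+ENZ replicate 3 and 9 without ADF replicate 3. It was 15 with coding genes alone. Chaperones of the endoplasmic reticulum and unfolded protein response gave 9 higher of 27, or 33.3%, among them Herpud1, a component of degradation from that compartment, at 69.8 ± 4.68 CPM in ADF+ENZ tumours and 52.3 ± 3.61 CPM in ADF tumours (SD, n = 4 each; adjusted p = 0.00484). The lectin chaperone gene Canx rose by 0.47 on the log2 scale (adjusted p = 0.00729). Cytosolic chaperones and heat shock genes gave 7 higher of 24, or 29.2%, among them Hspa4l, at 232 ± 6.30 CPM in ADF+ENZ tumours and 169 ± 14.03 CPM in ADF tumours (SD, n = 4 each; adjusted p = 0.00745). The chaperones of the endoplasmic reticulum that were higher numbered 4 without ADF replicate 4 and 5 without ADF+ENZ replicate 3 or ADF replicate 3. The cytosolic ones numbered 2 without ADF+ENZ replicate 3 or ADF replicate 4 and 3 without ADF replicate 3.

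**Figure D3:**
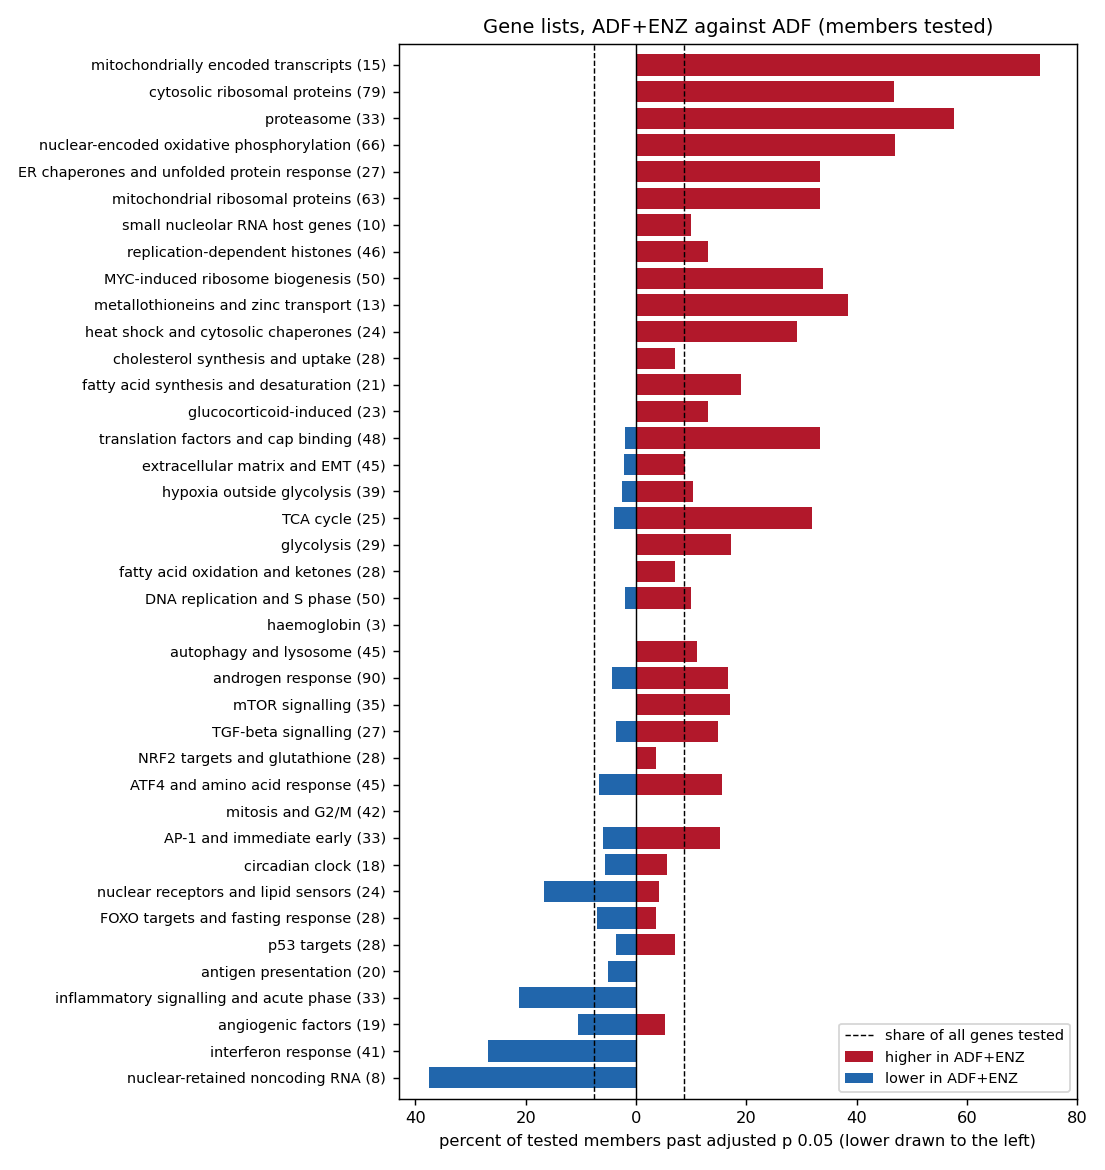
Percent of tested members higher (right) and lower (left) in ADF+ENZ than in ADF tumours at adjusted p under 0.05, for 39 gene lists ordered by median log2 difference, with the number of members tested in brackets. Dashed lines mark the share of all tested genes, 8.72% higher and 7.54% lower; the mitochondrially encoded, proteasome, oxidative phosphorylation and cytosolic ribosomal lists reach farthest right, and the nuclear-retained and interferon lists farthest left.

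The mitochondrial lists of energy metabolism held higher members. Of 15 mitochondrially encoded transcripts tested, 11 were higher, or 73.3%, and none lower, with a median log2 difference of 0.59. mt-Co1, a catalytic subunit of cytochrome c oxidase, had 9550.5, 8254, 11649 and 9727 CPM in the ADF+ENZ tumours, against 6848, 6113, 6840.5 and 6594 CPM in the ADF tumours (log2 difference 0.57 ± 0.12 (SE), adjusted p = 0.00551), without overlap. Mitochondrially encoded genes took 1.74% ± 0.203 of gene counts in ADF+ENZ and 1.29% ± 0.0833 in ADF libraries. This share is among the library measures above that separated the groups. Of 66 nuclear-encoded oxidative phosphorylation genes, 31 were higher, or 47%, and none lower (median 0.30). Uqcrq, a subunit of complex III, had 60.5, 53.2, 59.5 and 53.5 CPM in the ADF+ENZ tumours, against 40.1, 39.0, 36.6 and 35.2 CPM in the ADF tumours (log2 difference 0.58 ± 0.09 (SE), adjusted p = 0.00138). Ndufs8, a subunit of complex I, had 37.0, 37.5, 48.6 and 36.3 CPM in the ADF+ENZ tumours, against 25.7, 23.1, 27.6 and 27.7 CPM in the ADF tumours (log2 difference 0.61 ± 0.10 (SE), adjusted p = 0.00262). Neither overlapped between groups. The mitochondrially encoded genes that were higher numbered 5 without ADF+ENZ replicate 3, 6 without ADF replicate 4 and 7 without ADF replicate 2. The nuclear-encoded ones numbered 15 without ADF+ENZ replicate 3 or ADF replicate 4.

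The tricarboxylic acid cycle list had 8 higher, or 32%, and 1 lower of 25, led by Sdhb, the iron-sulphur subunit of succinate dehydrogenase, at 67.6 ± 3.07 CPM in ADF+ENZ tumours and 46.9 ± 5.74 CPM in ADF tumours (SD, n = 4 each; adjusted p = 0.00262). The higher members numbered 4 without ADF+ENZ replicate 3 or ADF replicate 4 and 5 without ADF replicate 3. Fatty acid synthesis and desaturation gave 4 higher, or 19%, and none lower of 21, with Fads1, a desaturase of polyunsaturated fats, at a log2 difference of 0.90 ± 0.23 (SE), adjusted p = 0.0179. Their count was 1 without ADF+ENZ replicate 3 or ADF replicate 4 and 2 without ADF replicate 3. Counts in the other lipid lists stayed below the 8.72% of all genes: cholesterol synthesis and uptake gave 2 higher of 28 and fatty acid oxidation 2 of 28, and neither had a lower member; leaving out 1 tumour gave 0 to 4 and 0 to 2 higher. Cpt1a, which admits fatty acids to mitochondria, differed by 0.16 (adjusted p = 0.343). Zinc handling, a hallmark of prostate epithelium, gave 5 higher, or 38.5%, and none lower of 13. The count was 2 without ADF replicate 4 and 3 without ADF+ENZ replicate 3. Slc39a1, an importer of zinc, had 225, 207, 243 and 201 CPM in the ADF+ENZ tumours, against 181, 169, 161 and 151 CPM in the ADF tumours (log2 difference 0.41 ± 0.08 (SE), adjusted p = 0.00466). Slc39a6, a second importer, rose by 0.55 and the exporter gene Slc30a4 by 0.54 on the log2 scale (adjusted p = 0.00552 and 0.017).

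Glycolysis and other targets of hypoxia-inducible factor had members that rose and, above all, a response that was not the same in both diets. Hypoxia-inducible factors bind a core of letters ACGTG in DNA, and their targets include glycolytic enzymes, collagen-modifying enzymes and the angiogenic factor gene Vegfa. In fasted mice 5 of 29 glycolysis genes were higher with enzalutamide and none lower, or 17.2%, and 4 of 39 further hypoxia genes, or 10.3%, were higher and 1 lower, against 8.72% and 7.54% of all genes. In freely fed mice enzalutamide went with none higher and 12 lower glycolysis genes, and none higher and 13 lower further hypoxia genes, where 1.81% and 3.62% of all genes passed. The difference between diets passed, in the positive direction, for 14 of 29 glycolysis genes and 15 of 39 hypoxia genes, against 2.18% of all genes. Over those 14 the log2 difference ranged from 0.09 to 0.61 in fasted and from -1.61 to -0.05 in fed mice. With the unassigned-read percentage as a covariate no gene passed the test of a difference between diets. Fitted with coding genes alone, 4 glycolysis and 4 hypoxia genes were higher in fasted mice. The higher glycolysis genes numbered 1 without ADF+ENZ replicate 3 or ADF replicate 4 and 3 without ADF+ENZ replicate 1. The higher hypoxia genes numbered 4 to 6 in fits that left out 1 tumour.

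Ldha, lactate dehydrogenase, had 439.7, 440.3, 518 and 401 CPM in the ADF+ENZ tumours, against 341, 373, 349.6 and 272 CPM in the ADF tumours (log2 difference 0.43 ± 0.12 (SE), adjusted p = 0.0237), and it had 528, 546, 552 and 478 CPM in the ENZ tumours, against 682, 668, 791 and 513 CPM in the Vehicle tumours (log2 difference -0.34 ± 0.12 (SE), adjusted p = 0.115). The lowest values among these were those of the ADF tumours, and the difference between diets was 0.77 ± 0.17 (SE), adjusted p = 0.0256. Vegfa had 252, 227, 301 and 259 CPM in the ADF+ENZ tumours, against 161, 160.1, 184 and 159.6 CPM in the ADF tumours (log2 difference 0.64 ± 0.11 (SE), adjusted p = 0.00284), and it had 267, 297, 267 and 252 CPM in the ENZ tumours, against 303, 319, 372 and 238 CPM in the Vehicle tumours (log2 difference -0.18 ± 0.11 (SE), adjusted p = 0.386). The ADF tumours were again lowest, and the difference between diets was 0.83 ± 0.16 (SE), adjusted p = 0.0128. Plod2, which hydroxylates collagen lysines, had 90.7, 75.3, 122 and 89.4 CPM in the ADF+ENZ tumours, against 37.6, 60.2, 65.9 and 43.4 CPM in the ADF tumours (log2 difference 0.86 ± 0.17 (SE), adjusted p = 0.0064), with a difference between diets of 1.35 ± 0.25 (SE), adjusted p = 0.0128. Pgam1 and Pkm, which catalyse late steps of glycolysis, rose by 0.61 and 0.48 on the log2 scale (adjusted p = 0.0235 and 0.0144). P4hb, an isomerase that is also a subunit of collagen prolyl hydroxylase, had 1028, 739.9, 1062 and 842 CPM in the ADF+ENZ tumours, against 657, 751, 643 and 593 CPM in the ADF tumours (log2 difference 0.47 ± 0.11 (SE), adjusted p = 0.0112), and its groups overlapped. With the unassigned-read percentage as a covariate the log2 difference in fasted mice was -0.047 for Ldha and -0.10 for Pgam1 in edgeR, with the sign turned, and Pkm turned in limma-voom only. Leaving out 1 tumour, Ldha and Pkm passed in 6 and Pgam1 in 5 of 8 fits.

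The promoters of Ldha and P4hb are shown because both rose and both carry ACGTG in the window from 250 bases before to 50 bases after the start of transcription. The core was searched on both strands and is contained in the E-box CACGTG, which MYC and related factors bind. It was present in 13 of 28 glycolysis genes with a promoter sequence (46.4%) and in 17 of 30 further hypoxia genes (56.7%), against 19.7% of 27025 promoters. Of the members that rose, 2 of 5 and 1 of 3 carried it. Sequences are from RefSeq on GRCm38.p6 and run 5′ to 3′ along the gene, with the core, or overlapping cores, in capitals: Ldha at chr7:46845554-46845853 on the plus strand and P4hb at chr11:120573204-120573503 on the minus strand.
Ldha: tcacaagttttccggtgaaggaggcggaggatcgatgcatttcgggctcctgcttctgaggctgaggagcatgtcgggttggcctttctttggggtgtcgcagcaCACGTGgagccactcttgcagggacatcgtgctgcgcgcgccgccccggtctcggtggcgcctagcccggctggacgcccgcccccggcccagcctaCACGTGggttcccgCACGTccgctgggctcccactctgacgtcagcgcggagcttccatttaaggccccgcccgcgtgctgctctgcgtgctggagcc
P4hb: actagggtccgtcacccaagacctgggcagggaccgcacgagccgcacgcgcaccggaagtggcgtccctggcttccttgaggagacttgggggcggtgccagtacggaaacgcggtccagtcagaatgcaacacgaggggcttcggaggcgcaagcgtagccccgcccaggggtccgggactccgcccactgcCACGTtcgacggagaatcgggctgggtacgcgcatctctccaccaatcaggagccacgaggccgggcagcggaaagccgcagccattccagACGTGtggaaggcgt

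**Figure D4:**
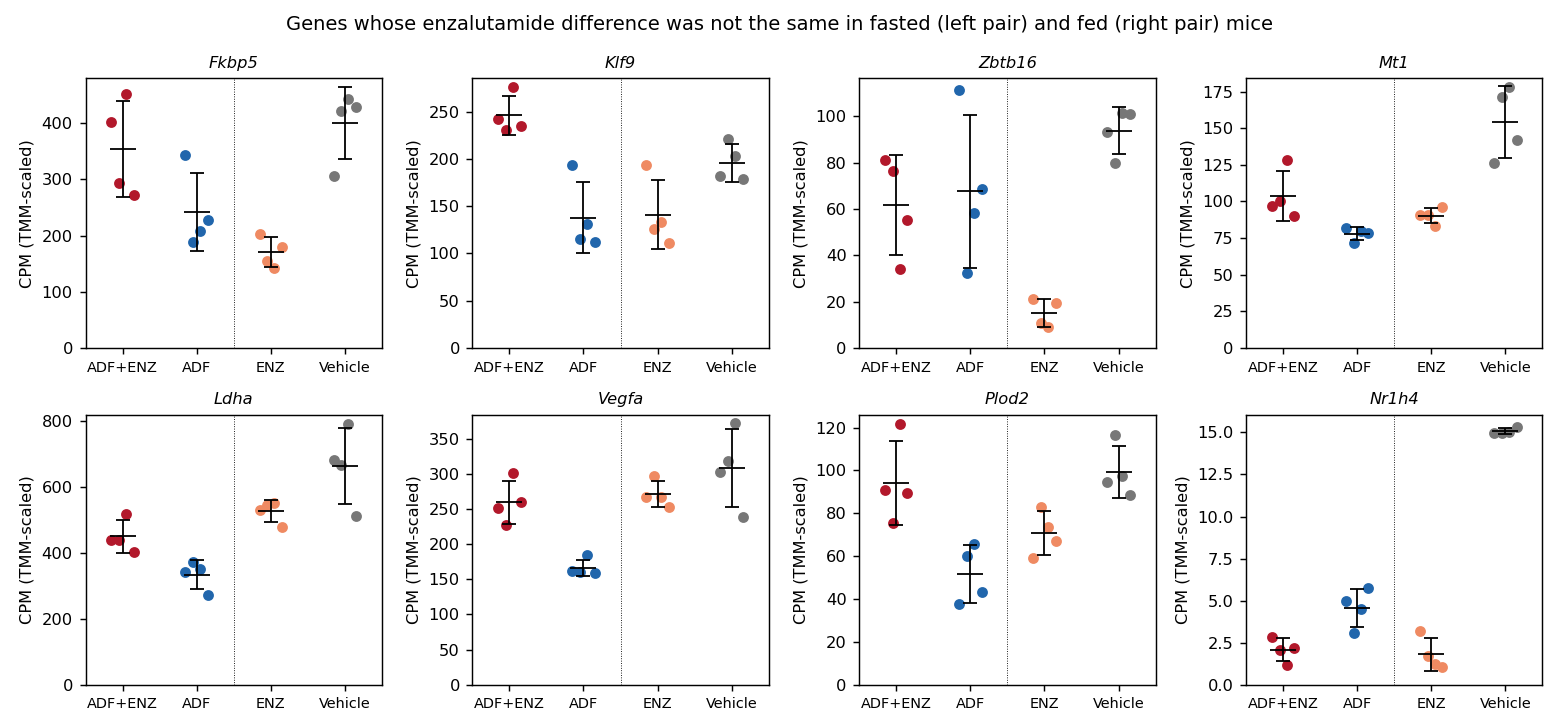
TMM-scaled CPM of 8 genes by group, with the fasted pair (ADF+ENZ, ADF) left and the fed pair (ENZ, Vehicle) right of the dotted line. Points are tumours, bars the mean and SD (n = 4 per group); for Ldha and Plod2 the first of each pair is higher in fasted and lower in fed mice on average, and for Nr1h4 all 4 Vehicle tumours lie above the other 12.

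Some interferon-response genes fell. Type I interferon acts through STAT2 and its partners, which bind the interferon-stimulated response element and switch on antiviral genes. Of 41 such genes tested none was higher and 11 were lower in ADF+ENZ tumours, or 26.8% against 7.54% of all genes, with a median log2 difference of -0.26. The groups did not overlap for 3 of the 41, or 7.32%, against 20.5% of all genes. The count was 4 without ADF+ENZ replicate 3, ADF replicate 3 or ADF replicate 4, 6 without ADF+ENZ replicate 1, 7 without ADF+ENZ replicate 4 or ADF replicate 2 and 17 without ADF replicate 1. With coding genes alone 12 were lower. Oas2, an oligoadenylate synthetase that senses double-stranded RNA, had 6.78, 7.50, 6.14 and 5.21 CPM in the ADF+ENZ tumours, against 10.6, 15.5, 17.4 and 21.5 CPM in the ADF tumours (log2 difference -1.35 ± 0.21 (SE), adjusted p = 0.00142), without overlap. Irf7, a master regulator of interferon production, had 27.0, 31.0, 21.4 and 21.8 CPM in the ADF+ENZ tumours, against 31.4, 45.5, 46.1 and 42.4 CPM in the ADF tumours (log2 difference -0.71 ± 0.16 (SE), adjusted p = 0.00842). Ifi27, a mitochondrial interferon-induced protein, had 25.8, 29.5, 27.7 and 21.1 CPM in the ADF+ENZ tumours, against 34.9, 42.0, 41.8 and 36.4 CPM in the ADF tumours (log2 difference -0.58 ± 0.13 (SE), adjusted p = 0.0075). Both separated the groups. Parp14, an ADP-ribosyltransferase, fell by 0.60 on the log2 scale (adjusted p = 0.0108), with overlapping groups. In fed mice 4 of the 41 were lower with enzalutamide and none higher, and no gene of the list passed the test of a difference between diets.

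The promoters of Bst2, which tethers budding virus particles to the cell surface, and Stat2 are shown because both fell, by 0.40 and 0.41 on the log2 scale (adjusted p = 0.0348 and 0.0347), and both hold a core of the interferon-stimulated response element, GAAA followed after any 2 bases by GAAA. These members were picked after their values were seen, passed in 3 of 8 fits that left out 1 tumour and overlapped between groups. The core, searched on both strands in the same window, was present in 18 of 31 tested list members with a promoter sequence (58.1%), in 3 of 6 of those that fell and in 3.49% of all promoters. Sequences are from RefSeq on GRCm38.p6, 5′ to 3′ along the gene with the core in capitals: Bst2 at chr8:71537423-71537722 on the minus strand, with overlapping cores, and Stat2 at chr10:128270248-128270547 on the plus strand, where the core is read on the opposite strand.
Bst2: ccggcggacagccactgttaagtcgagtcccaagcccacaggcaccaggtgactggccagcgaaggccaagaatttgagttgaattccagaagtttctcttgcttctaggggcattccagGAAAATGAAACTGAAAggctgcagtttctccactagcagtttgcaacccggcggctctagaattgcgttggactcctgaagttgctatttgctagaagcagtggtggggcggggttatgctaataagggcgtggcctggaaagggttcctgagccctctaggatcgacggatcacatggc
Stat2: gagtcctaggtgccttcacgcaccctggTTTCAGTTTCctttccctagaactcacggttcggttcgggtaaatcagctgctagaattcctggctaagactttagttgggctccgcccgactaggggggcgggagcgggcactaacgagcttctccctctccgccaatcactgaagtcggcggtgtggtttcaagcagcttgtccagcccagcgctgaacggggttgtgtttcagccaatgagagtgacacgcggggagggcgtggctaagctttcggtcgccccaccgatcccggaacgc

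Inflammatory signalling and acute-phase genes gave none higher and 7 lower of 33, or 21.2% against 7.54% of all genes. The lower ones numbered 3 without ADF+ENZ replicate 3 and 4 without ADF+ENZ replicate 1 or ADF+ENZ replicate 2. Beside Lbp, the NF-kB subunit gene Relb had 19.9, 17.3, 17.7 and 20.2 CPM in the ADF+ENZ tumours, against 27.7, 28.7, 29.4 and 25.5 CPM in the ADF tumours (log2 difference -0.56 ± 0.10 (SE), adjusted p = 0.00295), and Tnfaip3, which ends NF-kB signalling, had 16.3, 18.8, 15.6 and 17.7 CPM in the ADF+ENZ tumours, against 25.3, 22.7, 24.5 and 26.4 CPM in the ADF tumours (log2 difference -0.53 ± 0.10 (SE), adjusted p = 0.00469). Both separated the groups. Il18r1, a receptor chain for interleukin-18, had 6.04, 9.16, 5.81 and 9.86 CPM in the ADF+ENZ tumours, against 10.5, 14.8, 16.1 and 26.6 CPM in the ADF tumours (log2 difference -1.11 ± 0.27 (SE), adjusted p = 0.0155). Its log2 difference was -2.76 in fed mice, and the difference between diets was 1.65 ± 0.38 (SE), adjusted p = 0.0324. Of 20 antigen presentation genes 1 was lower, or 5%, under the 7.54% of all genes, and none was higher. Without ADF replicate 3 or 4 none was lower. The member that was lower was H2-T23, a nonclassical MHC class I gene, at 24.6 ± 8.28 CPM in ADF+ENZ tumours and 43.1 ± 8.29 CPM in ADF tumours (SD, n = 4 each, adjusted p = 0.0167).

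None of 42 mitosis genes passed in either direction in edgeR, where 5 had an unadjusted p under 0.05, and 1 was higher by DESeq2 and by limma-voom. Mki67 was at 321 ± 59.3 CPM in ADF+ENZ tumours and 319.6 ± 32.1 CPM in ADF tumours (SD, n = 4 each; adjusted p = 0.983). Of 50 replication genes 5 were higher and 1 lower, and of 46 replication-dependent histone genes 6 were higher and none lower. The higher ones made up 10% and 13%, against 8.72% of all genes. The replication genes that were higher numbered 1 without ADF+ENZ replicate 3, ADF replicate 3 or ADF replicate 4, 2 without ADF+ENZ replicate 4 and 3 without ADF+ENZ replicate 1 or ADF replicate 1. The histone genes numbered 0 without ADF replicate 4, 2 without ADF+ENZ replicate 3 and 3 without ADF+ENZ replicate 4 or ADF replicate 3. Among 45 genes of the amino acid response 7 were higher and 3 lower, or 15.6% and 6.67%. The higher ones numbered 1 without ADF replicate 4 and 3 without ADF+ENZ replicate 3 or ADF replicate 3. Of the list, 1 to 3 were lower when 1 tumour was left out. Atf4, its transcription factor, had 276, 194, 275 and 213 CPM in the ADF+ENZ tumours, against 192, 182, 143 and 137 CPM in the ADF tumours (log2 difference 0.55 ± 0.13 (SE), adjusted p = 0.0111), and Phgdh, the first enzyme of serine synthesis, rose by 0.52 on the log2 scale (adjusted p = 0.0134). Of 28 fasting-response and FOXO target genes 1 was higher and 2 were lower, or 3.57% and 7.14%, near or under the share of all genes: Irs1, an adaptor of the insulin receptor, had 102, 136, 96.6 and 109 CPM in the ADF+ENZ tumours, against 134, 156, 158 and 160.3 CPM in the ADF tumours (log2 difference -0.46 ± 0.11 (SE), adjusted p = 0.012) and Igf1r, the IGF1 receptor, had 104, 124, 109 and 109 CPM in the ADF+ENZ tumours, against 154, 151, 146 and 121 CPM in the ADF tumours (log2 difference -0.36 ± 0.11 (SE), adjusted p = 0.034). Both overlapped between groups.

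Immediate early genes went both ways, with 5 higher and 2 lower of 33, or 15.2% and 6.06%. Leaving out 1 tumour gave 2 to 7 higher and 1 to 4 lower, with the fewest higher without ADF replicate 4. The AP-1 subunit gene Jund rose by 0.57 on the log2 scale (adjusted p = 0.00944), while Egr1, an early growth response factor, had 13.6, 13.1, 8.33 and 11.9 CPM in the ADF+ENZ tumours, against 17.7, 27.4, 28.0 and 27.7 CPM in the ADF tumours (log2 difference -1.10 ± 0.25 (SE), adjusted p = 0.0104). Its groups did not overlap. In the TGF-beta list of 27, 4 were higher and 1 lower, or 14.8% and 3.7%. None was higher with coding genes alone, and the higher ones numbered 0 without ADF+ENZ replicate 3, ADF replicate 3 or ADF replicate 4, 1 without ADF replicate 2 and 2 without ADF+ENZ replicate 1. Smad6, which inhibits BMP signalling, had 2.86, 2.99, 1.64 and 2.63 CPM in the ADF+ENZ tumours, against 5.12, 5.74, 5.59 and 6.24 CPM in the ADF tumours (log2 difference -1.14 ± 0.19 (SE), adjusted p = 0.00207), and the difference between diets was -1.32 ± 0.26 (SE), adjusted p = 0.0141. Matrix genes gave 4 higher and 1 lower of 45, or 8.89% higher, near the 8.72% of all genes. The higher ones numbered 0 without ADF+ENZ replicate 3 and 2 without ADF+ENZ replicate 1, ADF replicate 3 or ADF replicate 4. Col18a1, a basement membrane collagen, had a log2 difference of 0.60 ± 0.15 (SE), adjusted p = 0.0139, and Col7a1 one of -0.57 ± 0.11 (SE), adjusted p = 0.00369. Of 24 nuclear receptor and lipid sensor genes 1 was higher, Hsd11b1, and 4 were lower, or 16.7%. The lower ones numbered 1 without ADF replicate 4 and 2 without ADF+ENZ replicate 1, ADF+ENZ replicate 3 or ADF replicate 3. Nr1h4, the bile acid receptor, had 2.86, 2.06, 1.21 and 2.18 CPM in the ADF+ENZ tumours, against 4.96, 3.08, 4.49 and 5.73 CPM in the ADF tumours, and 3.22, 1.71, 1.26 and 1.08 CPM in the ENZ tumours, against 14.98, 14.98, 15.1 and 15.3 CPM in the Vehicle tumours. It fell by 1.10 in fasted and by 3.12 in fed mice on the log2 scale, and the difference between diets was 2.02 ± 0.39 (SE), adjusted p = 0.0128. Nr1h3, the liver X receptor, fell by 0.80 (adjusted p = 0.00861) and Esr1, the oestrogen receptor, by 0.89 (adjusted p = 0.0233).

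Cell type markers were summed in each tumour, and the sums overlapped between groups for the lists described here. Summed levels of 15 luminal prostate markers were 340.1 to 979 CPM in ADF+ENZ and 585 to 734 CPM in ADF tumours, with Pbsn and Spink1 at 0 counts in all 8, so these defining genes of the labelled prostate origin are absent and the sum rests on the others. Basal markers summed to 987 to 1357 CPM in ADF+ENZ and 1299 to 1454 CPM in ADF tumours, with Krt5 and Dsc3 at 0. Taken gene by gene, 2 of 8 tested luminal markers were lower, or 25%, against 7.54% of all genes, and none was higher. Among 4 tested basal markers 2 were lower, or 50%, and none was higher. Macrophage markers summed to 4382 to 5526 CPM in ADF+ENZ and 4169 to 4855 CPM in ADF tumours, and fibroblast markers to 11586 to 13477 CPM in ADF+ENZ and 8937 to 12718 CPM in ADF tumours. Endothelial markers summed to 503 to 987 CPM in ADF+ENZ and 699 to 944 CPM in ADF tumours, and T cell markers to 8.65 to 28.0 CPM in ADF+ENZ and 8.55 to 23.4 CPM in ADF tumours. None of 17 summed levels passed an exact two-sided permutation test (smallest p = 0.0571, adjusted p = 0.484, for basal and nerve markers). The smallest p that this test allows is 0.0286, so 1 list alone could not pass after adjustment over 17. The test therefore cannot show that the sums were alike. Of all 14 T cell markers tested 1 was lower, or 7.14%, near the 7.54% of all genes. This marker was Foxp3 of regulatory T cells, at 2.30 ± 0.262 CPM in ADF+ENZ tumours and 4.22 ± 0.835 CPM in ADF tumours (SD, n = 4 each, adjusted p = 0.0112). In whole tumours fewer cells of a type and less RNA per cell cannot be told apart.

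The enzalutamide differences in fasted and fed mice were compared directly. In fed mice 342 genes were higher and 686 lower in ENZ than in Vehicle tumours (1.81% and 3.62%). Of the genes past the threshold, 257 passed in both diets, 8.34% of those in fasted and 25.0% of those in fed mice; 108 were higher in both, 124 lower in both, 19 higher in fasted and lower in fed, and 6 the reverse. The 2 comparisons share no library. Over the 18946 genes the log2 differences had a Spearman correlation of 0.22 and a Pearson correlation of 0.26, which describe genes that are not independent of each other. The difference between diets passed for 587 genes (3.1%), with 413 more positive in fasted mice (2.18%) and 174 more negative (0.918%). These counts ranged from 121 to 611 and from 27 to 297 when 1 of the 16 tumours was left out, with both minima without ADF replicate 4.

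**Figure D5:**
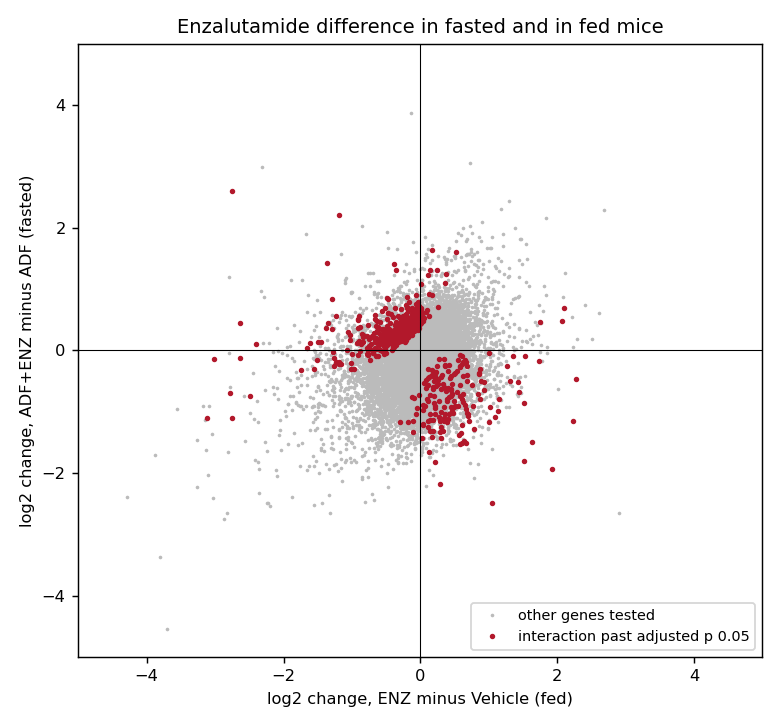
Log2 difference of each of 18946 genes in fasted mice (vertical axis, ADF+ENZ minus ADF) against that in fed mice (horizontal axis, ENZ minus Vehicle), with the 587 genes whose difference between diets passed adjusted p 0.05 in red; 1 gene lies outside the plotted range of 5 in either direction. The red points lie away from the diagonal and many lie near 0 on the vertical axis or in the upper left.

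Genes that fell with enzalutamide in both diets included Lamc3 (-2.49 in fasted and -2.23 in fed mice, log2), B4galnt1 (-0.98 and -1.49), Msln (-0.88 and -1.19) and Radil, an adhesion regulator (-1.01 and -1.05). For none of these 4 did the difference between diets pass. Mt1 and Alkbh5, an RNA demethylase, were among the genes that passed in opposite directions: Alkbh5 had 288, 239, 319.6 and 246 CPM in the ADF+ENZ tumours, against 214, 201, 205 and 196 CPM in the ADF tumours (log2 difference 0.42 ± 0.10 (SE), adjusted p = 0.00911), and it had 201, 217, 217 and 208 CPM in the ENZ tumours, against 251, 282, 303 and 233 CPM in the Vehicle tumours (log2 difference -0.34 ± 0.10 (SE), adjusted p = 0.0434). Mt1 had 90.6, 91.0, 83.5 and 96.1 CPM in the ENZ tumours, against 126, 171, 178 and 142 CPM in the Vehicle tumours (log2 difference -0.77 ± 0.11 (SE), adjusted p = 0.000465), and its difference between diets was 1.18 ± 0.16 (SE), adjusted p = 0.00223.

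For other genes the log2 difference with enzalutamide was more negative in fed than in fasted mice. Ly6a, the stem cell antigen Sca-1, had 297, 262, 279.7 and 246 CPM in the ADF+ENZ tumours, against 248, 255, 312 and 294 CPM in the ADF tumours (log2 difference -0.03 ± 0.10 (SE), adjusted p = 0.852), and it had 177, 211, 194 and 196 CPM in the ENZ tumours, against 409, 476, 529 and 477 CPM in the Vehicle tumours (log2 difference -1.28 ± 0.10 (SE), adjusted p = 4.99e-07). The 4 Vehicle tumours alone were high, and the difference between diets was 1.25 ± 0.14 (SE), adjusted p = 0.000403. Suox, sulphite oxidase, had differences of -0.16 in fasted and -1.51 in fed mice (difference between diets 1.35 ± 0.17 (SE), adjusted p = 0.000837). Nfil3, a clock-linked repressor, had differences of 0.35 in fasted and -1.29 in fed mice (difference between diets 1.65 ± 0.20 (SE), adjusted p = 0.000837). Fkbp5 and Zbtb16, which did not pass in fasted mice, fell in fed mice by 1.23 and 2.63 on the log2 scale. Fkbp5 had 203, 155, 143 and 180.4 CPM in the ENZ tumours, against 306, 422, 443 and 429 CPM in the Vehicle tumours, and its difference between diets was 1.79 ± 0.28 (SE), adjusted p = 0.00787. Zbtb16 had 21.2, 10.9, 9.07 and 19.4 CPM in the ENZ tumours, against 93.1, 79.8, 101 and 101 CPM in the Vehicle tumours, with a difference between diets of 2.51 ± 0.53 (SE), adjusted p = 0.0292. Klf9 was higher with enzalutamide in fasted mice and had a log2 difference of -0.48 in fed mice (adjusted p = 0.123), with a difference between diets of 1.31 ± 0.25 (SE), adjusted p = 0.0141. Fn1, fibronectin, differed by 0.29 in fasted mice (adjusted p = 0.27) and by -1.06 in fed mice (adjusted p = 0.00207), with a difference between diets of 1.36 ± 0.26 (SE), adjusted p = 0.0126. Adgrg2, an adhesion receptor of the epididymis, fell by 0.70 in fasted and by 2.78 in fed mice, and the difference between diets was 2.08 ± 0.30 (SE), adjusted p = 0.00589.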

How the data were processed

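RNA of 16 subcutaneous tumours was sequenced from both ends, and the authors deposited raw counts per gene and library. Tools listed without versions in the submitters' processing notes are HISAT2, featureCounts, Trim Galore and DESeq2, and the builds listed are GRCh38 and mm39, without a role. Whether counting used strand is not stated there, so for genes that overlap another annotated gene the reads cannot be told apart; among the genes named this applies to Adgrg2, B4galnt1, Chst11, Cldn10, Col18a1, Col7a1, Ctsl, Dusp1, Eef2k, Eif4e, Fads1, Fkbp5, Fn1, Foxp3, Gad2, Gfra1, H1f0, H2-T23, Herpud1, Hsd11b1, Irf7, Irs1, Jund, Kcnq1ot1, Klf9, Klhl40, Lamc3, Malat1, Mki67, Mrpl12, Nr1h3, Oas2, Omd, Parp14, Pes1, Pkm, Plod2, Radil, Rpl15, Selenof, Slc30a4, Slc39a6 and mt-Co1. Names and classes came from GENCODE M21 (GRCm38) and the name table given: 52081 of 55414 gene IDs had a symbol. The table also has 5 entries that name no gene (reads in no feature, ambiguous, of low quality, not aligned or aligned to several places), left out of the tests; the share of reads in no feature is in the report.

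Counts were fitted in edgeR 4.0.16 (R 4.3.3) by the robust quasi-likelihood test on all 16 libraries as 4 groups, with TMM scaling and filterByExpr (minimum count 10, minimum total 15), and p-values were adjusted by Benjamini-Hochberg over 18946 genes per contrast. The difference between diets is the contrast (ADF+ENZ minus ADF) minus (ENZ minus Vehicle). Standard errors were taken from the F statistic. DESeq2 1.42.0, limma-voom with quality weights (limma 3.58.1), other filters and scalings, covariates, and leaving out each tumour were alternatives. On simulated counts of 18467 genes for ADF+ENZ against ADF, 67% of genes changed 2-fold and 97% changed 4-fold were recovered, with 8 other genes called. Replicate pairs within a group differed beyond sampling noise (chi-square per degree of freedom 5.19 to 21.8 over 12 pairs). Library measures and marker sums were tested by exact permutation over 70 assignments.

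The comparison, its gene lists and the preset genes were chosen with earlier results of these data known. Genes named are: the 12 coding and 4 other genes with the largest change in each direction (mean CPM at least 1, groups not overlapping), up to 4 members per list by p, 22 preset genes, the 10 smallest interaction p-values, the 8 smallest p-values, and 6 each of same and opposite direction in both diets; not all are described, and some are not reported here. Promoter windows are RefSeq's on GRCm38.p6. Replicate numbers follow the order of the library labels and pair nothing.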

Additional observations from a re-analysis of the deposited data

Results flagged for a closer look

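The highest or lowest of 4 values stood far from the other 3, by Dixon's gap-to-range ratio above its 95% critical value, in 19 of 252 groups of 4 examined over the named genes, the library measures and the marker sums. Chance gives about 1 in 20 such groups. These were as follows. Chrnd had 5.70 CPM in ADF+ENZ replicate 3, with the other 3 ADF+ENZ tumours at 0.531 to 1.23. For Siglec15, ADF replicate 3 was at 1.34 CPM and the rest of its group at 0.560 to 0.645. Trim66 had 9.42 CPM in ADF+ENZ replicate 3, with the other 3 ADF+ENZ tumours at 4.84 to 5.55. For Lamc3, ADF+ENZ replicate 2 was at 5.64 CPM and the rest of its group at 1.64 to 2.29. Vegfa had 184 CPM in ADF replicate 3, with the other 3 ADF tumours at 159.6 to 161. For Sdhb, ADF+ENZ replicate 3 was at 72.2 CPM and the rest of its group at 65.8 to 66.6. Ndufs8 had 48.6 CPM in ADF+ENZ replicate 3, with the other 3 ADF+ENZ tumours at 36.3 to 37.5. For Rpl41, ADF replicate 4 was at 384 CPM and the rest of its group at 348 to 351. Phgdh had 175 CPM in ADF+ENZ replicate 2, with the other 3 ADF+ENZ tumours at 226 to 231. For Phgdh, ADF replicate 1 was at 183 CPM and the rest of its group at 138 to 141. Irs1 had 134 CPM in ADF replicate 1, with the other 3 ADF tumours at 156 to 160.3. For Egr1, ADF replicate 1 was at 17.7 CPM and the rest of its group at 27.4 to 28.0. Adgrg2 had 48.3 CPM in ADF replicate 4, with the other 3 ADF tumours at 30.6 to 33.2. For Rny1, ADF+ENZ replicate 3 was at 282 CPM and the rest of its group at 73.0 to 89.5. Reads not aligned made up 16.7% of the library of ADF+ENZ replicate 3, against 11.1% to 11.4% in the other 3 ADF+ENZ libraries. For neutrophil markers, ADF replicate 2 was at 39.9 summed CPM and the rest of its group at 23.9 to 25.1. T cell markers had 28.0 summed CPM in ADF+ENZ replicate 4, with the other 3 ADF+ENZ tumours at 8.65 to 11.4. For B and plasma cell markers, ADF+ENZ replicate 4 was at 25.0 summed CPM and the rest of its group at 6.24 to 7.12. B and plasma cell markers had 4.88 summed CPM in ADF replicate 1, with the other 3 ADF tumours at 10.7 to 11.4.

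The enzalutamide difference was not the same in fasted and in fed mice for 413 genes that were more positive and 174 that were more negative in fasted mice, by the interaction contrast of the same edgeR fit (2.18% and 0.918% of genes tested). Of the genes named in the text, 30 passed it. Each value that follows is the log2 difference in fasted mice (ADF+ENZ minus ADF) minus that in fed mice (ENZ minus Vehicle). Among genes with a positive value in fasted and a negative one in fed mice it was 0.74 for H1f0, 0.79 for Scd1, 1.31 for Klf9, 1.18 for Mt1, 0.75 for Pkm and 1.08 for Pgam1. Further genes with a positive value in fasted and a negative one in fed mice had 0.77 for Ldha, 0.83 for Vegfa, 1.35 for Plod2, 0.75 for P4hb, 0.83 for Phgdh and 0.68 for Herpud1. Further genes with a positive value in fasted and a negative one in fed mice had 0.63 for Canx, 0.72 for Hspa4l, 0.83 for Ctsl, 1.79 for Fkbp5, 1.36 for Fn1 and 1.65 for Nfil3. Further genes with a positive value in fasted and a negative one in fed mice had 1.07 for Chst11 and 0.76 for Alkbh5. Among genes with positive values in both it was 0.54 for Pes1 and 0.45 for Selenof. Among genes with a negative value in fasted and a positive one in fed mice it was -0.67 for Irs1 and -1.32 for Smad6. Among genes with negative values in both it was 1.65 for Il18r1, 2.02 for Nr1h4, 2.51 for Zbtb16, 2.08 for Adgrg2, 1.25 for Ly6a and 1.35 for Suox.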

How the results depend on the processing

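Genes higher and lower in ADF+ENZ than in ADF tumours numbered 1725 and 1392 with DESeq2's size factors in edgeR, 2124 and 1545 with DESeq2, 2267 and 2177 with limma-voom, 1377 and 1103 with no filter on low counts, 1605 and 1491 with at least 1 CPM in 4 samples and 1322 and 1326 with the 2 groups fitted alone. They numbered 985 and 937 with protein-coding genes alone, where fewer genes are tested and scaled, and 423 and 310 with skeletal muscle markers as a covariate; the cause of that drop was not tested. With reads in no feature as a covariate both were 0, by edgeR and by limma-voom (an alternative chosen after seeing the data), with 589 and 574 genes at an unadjusted p under 0.05; the covariate separates the groups, and standard errors were larger. Leaving out 1 tumour gave 672 to 1808 higher and 525 to 1595 lower genes. The difference between diets, 413 more positive and 174 more negative, became 984 and 393 with DESeq2, 301 more negative with limma-voom, 254 and 96 with protein-coding genes alone, 13 and 0 with the muscle covariate, 0 and 0 with reads in no feature as a covariate by either tool, and 121 to 611 and 27 to 297 when 1 of 16 tumours was left out; the causes were not tested. Of 83 named genes past the threshold 59 passed in each fit that left out 1 tumour, none of the 83 was lost by DESeq2, and Klhl40 alone was lost by limma-voom (adjusted p = 0.0624). Those that lost their call when 1 tumour was left out were Adgrg2, Bst2, Chrnd, Col18a1, Esr1, Fads1, Gad2, H2-T23, Igf1r, Il18r1, Kcnq1ot1, Klhl40, Ldha, Lrrc15, Malat1, Mt1, Nr1h4, Pgam1, Phgdh, Pkm, Pmepa1, Rny1, Slc30a4 and Stat2.

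The sign turned for 48 values, 18 of them of genes past the threshold. With reads in no feature as a covariate in edgeR the log2 difference was -0.10 for Pgam1, -0.047 for Ldha, -0.00017 for Atf4, -0.068 for Phgdh, -0.00081 for Slc39a6, 0.15 for Esr1, 0.13 for Malat1, 0.25 for Kcnq1ot1, 0.34 for Zbtb16, -0.23 for Myc, -0.041 for Cpt1a, -0.40 for Eif4ebp1, 0.026 for Adgrg2, -0.093 for Mki67, 0.081 for Suox, 0.046 for Bst2 and 0.14 for Stat2. In limma-voom with that covariate it was -0.059 for Pkm, -0.18 for Pgam1, -0.14 for Ldha, -0.0034 for Phgdh, 0.13 for Malat1, 0.12 for Kcnq1ot1, 0.77 for Zbtb16, -0.13 for Myc, -0.015 for Cpt1a, -0.36 for Eif4ebp1, -0.17 for Mki67, -0.038 for Nfil3, 0.093 for Suox and 0.0043 for Stat2. The rest concern genes that did not pass: 0.052 for Zbtb16 in limma-voom, 0.047 for Zbtb16 with the muscle covariate, -0.078 for Mki67 in limma-voom, -0.0058 for Mki67 with at least 1 CPM in 4 samples, -0.0032 for Mki67 with the 2 groups alone, -0.044 for Mki67 with protein-coding genes alone, -0.018 for Mki67 with the muscle covariate. When 1 tumour was left out, the value ranged over -0.36 to 0.23 for Zbtb16, -0.013 to 0.24 for Myc, -0.086 to 0.13 for Mki67 and -0.078 to 0.033 for Ly6a. No paired analysis was possible because the labels give no replicate numbers shared between groups. Depth limits low genes, and recovery among genes with low counts was not tested, because the simulation changed only genes above a minimum mean level. At these depths 67% of such genes changed 2-fold in simulated counts and 97% of those changed 4-fold were recovered. A difference that did not pass is not shown to be absent.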

Other observations

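In other gene lists, 0 to 5 members were higher and 0 to 2 lower in ADF+ENZ than in ADF tumours, to be read against 8.72% and 7.54% of all genes. Of 45 autophagy and lysosome genes 5 were higher, or 11.1%, and none lower, with Ctsl the first of them, and 2 to 7 were higher when 1 tumour was left out. Of 28 p53 targets 2 were higher (7.14%) and 1 was lower (3.57%), of 28 NRF2 and glutathione genes 1 was higher (3.57%) and none lower, and of 18 clock genes 1 was higher and 1 lower (5.56% each). Among 19 angiogenic factors 1 was higher, Vegfa (5.26%), and 2 were lower (10.5%). Of 10 small nucleolar RNA host genes 1 was higher (10%) and none lower. None of 3 haemoglobin genes passed in edgeR, DESeq2 or limma-voom, and none had an unadjusted p under 0.05 in edgeR. Leaving out 1 tumour gave 0 to 4 higher p53 targets, 0 to 2 higher NRF2 and glutathione genes, 1 to 2 higher and 0 to 2 lower clock genes, 1 to 3 lower angiogenic factors and 0 to 2 higher small nucleolar RNA host genes.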
